A study of Mus musculus with 15 samples.

Results

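The comparison described here is that of the pressure-loaded with the sham-operated heart in mice filed as Klf4 knockout (KO). It rests on 7 of the 15 arrays of the series, 3 from hearts after transverse aortic constriction (TAC) and 4 from hearts after sham surgery. Members were chosen by title, the KO hearts titled TAC against the KO hearts titled Control, and KO TAC replicate 4 was left out because nearly all of its probes were lit. In TAC the aortic arch is narrowed by a ligature, so that the left ventricle ejects against a raised pressure from the day of surgery. All mice were male, 10 weeks old and on a C57BL6 background, and the apex of the heart was taken 3 days after the operation. The KO animals carry the genotype MHC-cre-klf4, called A-cKO in the extraction protocol. The other groups of the series, 4 sham and 3 TAC arrays, carry MHC-cre alone (A-Cre), so Cre is common to all animals of the study. MHC-cre stands for a Cre recombinase driven by a myosin heavy chain promoter, which is active in heart muscle cells, so cells of other types in the apex are not expected to have lost Klf4. Total RNA was hybridised to 1-colour Agilent whole-genome arrays, 1 array per heart, and each array holds 41174 probes, of which 24836 carry 1 gene symbol. The study's design text gives 4 animals in each group. No source used here says whether the arrays of a group come from separate litters or surgery days, and the p-values measure the spread between these arrays.

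The labels leave some points unsettled. The value table that the authors deposited holds columns that match 14 of the 15 scanner files, each under the other genotype with the operation unchanged. Hearts filed here as KO may therefore be Cre hearts. The comparison of TAC with sham stays a comparison within 1 genotype under either set of labels. The probe of Klf4, a zinc finger transcription factor, read 4.49, 3.26, 4.03 and 3.98 in sham replicates 1 to 4 and 4.23, 4.50 and 4.35 in TAC replicates 1 to 3. These and all levels below are log2 signal relative to the array's own 75th percentile, so that 0 is a probe brighter than 3 in 4 of the others. Klf4 stood well above background on all 7 arrays and differed between TAC and sham by 0.39 ± 0.19 (SE of the fit), with an adjusted p of 0.13. No source used here says where the probe lies relative to a deleted part, so this level does not check the genotype. For 3 of the 7 arrays, sham replicates 2 and 4 and TAC replicate 2, a further label names the other operation. The titles were followed here. Grouped by that further label no feature was called by limma, with 581 at an unadjusted p under 0.05.

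The 7 arrays were of like quality. Their median signal lay between 83.7 and 129.5, 68.2% to 75.4% of probes were well above background, no spot was saturated, and the median correlation of each with the other arrays lay between 0.961 and 0.980. The omitted KO TAC replicate 4 read 445.4 at the median, with 95.9% of probes well above background, and a median correlation of 0.807. Arrays sat on 4 slides. Slide 1 held sham replicate 1 and TAC replicate 2, slide 2 sham replicate 2 and TAC replicate 1, slide 3 sham replicate 3 and TAC replicate 3, and slide 4 sham replicate 4. Every difference below is TAC minus sham from a limma fit over 14 arrays with slide as a block, ± its SE, 3 TAC against 4 sham arrays, and adjusted p-values are Benjamini-Hochberg values over all 25099 features tested. The heart muscle genes Myh6, Tnnt2, Actc1 and Myl2 were well above background on all 7 arrays. The apex is a mixture of cells, and in such bulk RNA fewer cells of a type and less RNA per cell cannot be told apart.

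Pressure overload raises the wall stress of the left ventricle. In the first days heart muscle cells sense the stretch and switch on immediate early factors and a fetal gene programme, stressed and injured cells release cytokines and chemokines that recruit neutrophils and monocytes, and fibroblasts begin to divide and to lay down provisional matrix. Over the same period genes of oxidative metabolism and of the potassium channels that repolarise the muscle are known to be turned down. Klf4 is known as a factor of muscle and vessel wall cells that restrains hypertrophic genes in the heart and takes part in the control of mitochondrial genes.

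TAC changed a large share of the transcriptome. Of the features tested 4895 rose and 5847 fell (limma, adjusted p under 0.05), that is 42.8% in all, 19.5% upwards and 23.3% downwards. Of the called features 1878 rose by at least 1 on the log2 scale, a doubling, and 2291 fell by as much. The 3 TAC and 4 sham arrays did not overlap in 37.7% of features. Of the 10742 called features 10569 had the same sign within each of the 3 slides that hold both groups. The calls draw on these same pairs, so this agreement is no separate support for them. With so many calls, a count within a group of genes has to be read against these shares, and the median difference of a group against the median of all features, -0.086. In a fit on the 7 arrays alone 2336 features rose and 2644 fell. Sham replicate 4 is alone on its slide there and carries no weight in the difference, which rests on the pairs within the other 3 slides. Where a called gene has several probes the brightest was used, and for 362 of 2535 such genes another probe had the opposite sign. Among called genes named below, another probe read a smaller difference of the same sign for Esrrg (-0.33), Atp2a2 (-0.15), Dnajc3 (0.23), Mrpl49 (-0.52), Ddr2 (-0.24) and Col5a3 (0.78), and a larger one for Adra1a (-2.78), Atp2a2 (-1.36), Lifr (-1.55) and Nkg7 (-3.32).

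The largest rises were of genes of myeloid cells, of the acute phase and of the stefin family. Arg1, which encodes arginase and marks a repair-type macrophage state, read -7.69, -8.97, -6.55 and -6.99 in the sham arrays and 0.31, 2.95 and 1.39 after TAC. Its signal cleared background on 1 of 4 sham arrays and on every TAC array, and it rose by 9.34 ± 1.16 (adjusted p = 0.00044). The sham values are near the floor of the array, so the size of this rise depends on the background. Chil3 and Chil4, chitinase-like proteins of alternatively activated macrophages and neutrophils whose sequences are close enough to share signal, rose by 6.76 ± 0.82 and 6.20 ± 0.90. Chil3 read -3.65, -3.36, -2.88 and -0.81 in sham arrays, with replicate 4 the highest, and 2.85, 4.53 and 3.65 after TAC. Il6, the cytokine that drives the acute phase response, read -7.67, -4.44, -6.63 and -6.21 after sham and 0.088, 0.50 and -0.73 after TAC, and rose by 6.10 ± 1.15 (adjusted p = 0.0028). Saa3, a serum amyloid made in peripheral tissue, read -5.39, -3.35, -2.69 and -3.49 against 1.47, 4.85 and 3.61 and rose by 6.88 ± 1.12. For each of these genes every TAC array lay above every sham array, as the choice of genes required.

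Further genes among the 12 largest rises were Crct1 (7.84 ± 1.74), a cysteine-rich protein of cornified epithelium, Wfdc21 (6.05 ± 0.82) and Steap1 (5.87 ± 0.93), a metalloreductase of the cell surface. Crct1 spread widely, between -8.65 and -3.25 in sham and between -0.021 and 3.25 in TAC arrays. The stefin A genes Stfa2l1 (6.14 ± 0.53), Stfa2 (5.84 ± 0.58) and Cstdc4 (6.08 ± 0.54) encode inhibitors of cysteine proteases that are abundant in neutrophils. They belong to a family of near-identical genes, so the 3 values may stem from shared transcripts. Stfa2l1 read -6.42, -7.79, -7.53 and -3.53 after sham and -1.12, -0.0087 and -0.95 after TAC, and sham replicate 4 again stood above the other sham arrays. The 3 stefin genes were well above background on sham replicate 4 alone among the sham arrays, and Crct1, Wfdc21 and Steap1 on 2 of 4 sham arrays each, so the sizes and order of these rises depend on the background. Each of these 12 calls held with any 1 of the 7 arrays left out.

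The largest falls took in genes that became too dim to measure. Lgi1, a secreted protein best known from synapses, read -1.49, -3.64, -3.0 and -2.56 in sham arrays, all well above background, and was not well above background on any TAC array. It was at least 12.4-fold lower after TAC (adjusted p = 8.4e-05), where the bound sets the sham mean against the lowest signal measured well above background on each TAC array. The same held for Mrgprh, an orphan receptor (at least 14.3-fold lower), the cyclic nucleotide-gated channel subunits Cngb3 and Cnga3 (at least 12.3-fold and 5.99-fold), the mitochondrial acyl-CoA synthetase Acsm5 (at least 9.65-fold) and Armc2 (at least 6.75-fold). It held as well for Klra9 and Klra8, receptors of natural killer cells (at least 9.21-fold and 6.09-fold), and for Asb15, a ubiquitin ligase adaptor of striated muscle (at least 5.32-fold). With KO TAC replicate 4 kept in the fit the calls of Klra9, Klra8 and Mrgprh ended (adjusted p = 0.076, 0.082 and 0.059).

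Of the 12 largest falls 3 were measured on both sides. Inmt, an amine N-methyltransferase, read 2.10, 2.92, 2.90 and 0.42 in sham and -2.58, -2.44 and -2.35 in TAC arrays, and fell by 4.87 (SE 0.42, adjusted p = 0.00015). Fn3k, fructosamine 3 kinase, an enzyme that removes sugars from glycated proteins, read 3.98, 2.67, 3.14 and 3.12 against -0.42, -0.68 and -0.97, a difference of -4.05 ± 0.30 (adjusted p = 9.5e-05). Gbp6, an interferon-inducible guanylate-binding protein, read -0.19, 0.14, 0.049 and 0.47 against -4.14, -3.43 and -3.65, a difference of -3.96 ± 0.38 (adjusted p = 0.00019). All TAC values of these 3 genes lay below all sham values, as the choice of genes required. The TAC arrays of each lay within 1 log2 unit of each other.

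**Figure D1:**
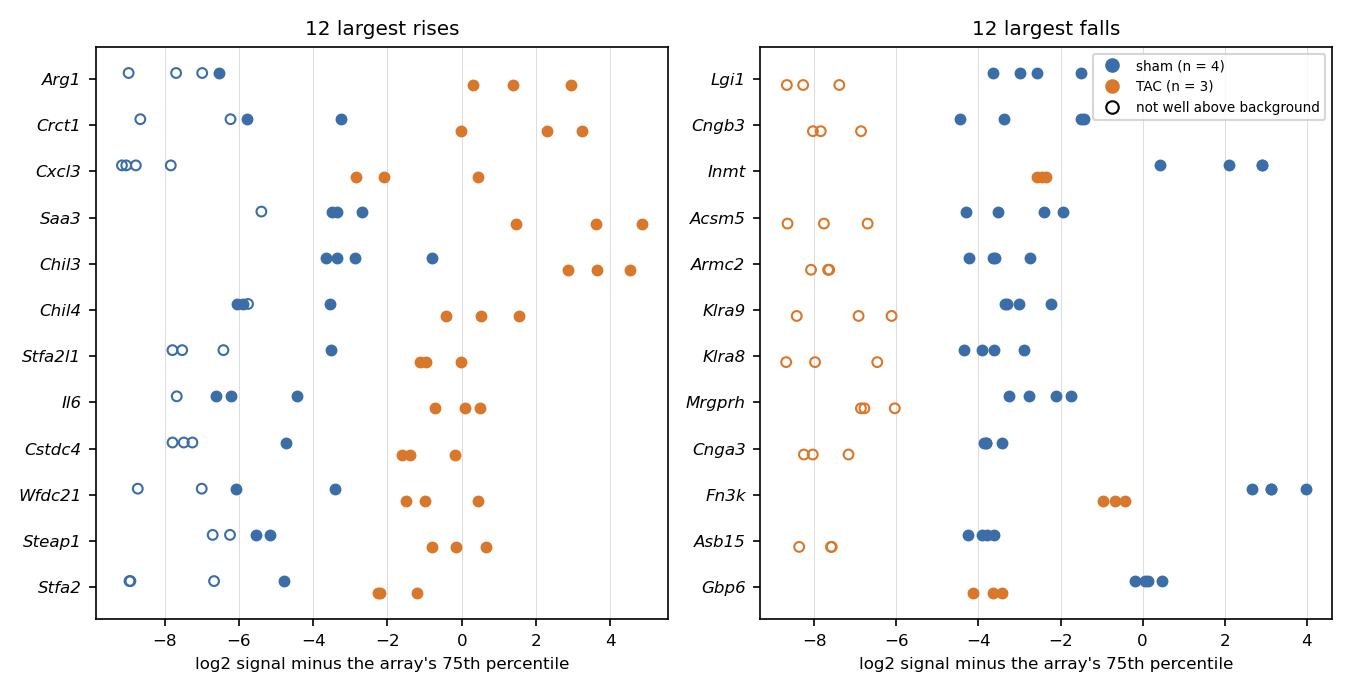
Level of the 12 largest rises and the 12 largest falls on each array, as log2 signal relative to the array's 75th percentile (horizontal axis), with sham arrays in blue and TAC arrays in orange and open symbols for spots not well above background. No TAC symbol overlaps the sham symbols of its gene, which was a condition for the choice of genes. Most open symbols are sham arrays among the rises and TAC arrays among the falls.

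Genes with the least scatter relative to their change gave a further view. Cd44, the hyaluronan receptor of activated leukocytes and mesenchymal cells, read 0.081, 0.63, 0.55 and 0.37 in sham and 3.06, 3.15 and 3.01 in TAC arrays and rose by 2.68 ± 0.17 (adjusted p = 8.8e-05). Adamts1, a secreted protease that cleaves versican, rose by 3.11 ± 0.22, and B3gnt5, a glycosyltransferase of lacto-series glycolipids, by 2.92 ± 0.16. Slc7a11, the cystine transporter, was not well above background on any sham array and was at least 2.30-fold higher after TAC. Tomm70a, a receptor of mitochondrial protein import, rose by 1.59 ± 0.11 on its brightest probe, while its other probes read differences of 0.36 and 0.30. Among the falls Ttc39a read -1.31, -1.48, -1.43 and -1.17 after sham and -4.47, -4.49 and -4.48 after TAC (-3.21 ± 0.20, adjusted p = 8.4e-05). Pik3ip1, an inhibitor of phosphoinositide 3-kinase, differed by -2.92, the muscle scaffold gene Rapsn by -2.39 and Tmem86a, a lysoplasmalogenase, by -2.20 (SE of 0.18, 0.15 and 0.11). In these genes the arrays within each group lay within about 1 log2 unit of each other, apart from Slc7a11, whose sham values are at background.

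Chemokines that attract neutrophils rose as a group, together with Cxcr2, their receptor gene, which stands in the same list. Of the 11 genes listed 7 were measured and all 7 rose, where 19.5% of all features did. Cxcl3 and Cxcl2, not well above background on any KO sham array, passed the filter through other arrays, so the count partly reflects the filter. The median difference was 3.82, the value of Cxcr2 itself, and the medians within slides 1, 2 and 3 were 4.64, 3.17 and 3.21. The median was 1.88 with normexp and quantile normalization, 2.21 with the authors' values and 2.86 over the 4 members well above background on all 7 arrays, and all members measured rose under each of these. Chemokines of this class bind CXCR2 on neutrophils, and NF-kappaB is the factor best known to switch them on. The letters GGAAA, any base and TCCC, 1 form of the NF-kappaB site, were searched on both strands of the RefSeq promoters (build GRCm38.p6, 250 bases before to 50 after the start). They were found for 3 of the 6 genes of the list with a promoter there, Cxcl1, Cxcl2 and Cxcl3, and for 0.466% of all 27025 genes. Il6 holds them too. The 4 windows below are shown because these genes rose together, with the match in capitals, each as it runs along the gene's strand and ending no later than the start site.
Cxcl1: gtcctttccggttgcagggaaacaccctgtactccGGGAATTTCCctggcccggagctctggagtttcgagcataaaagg
Cxcl2: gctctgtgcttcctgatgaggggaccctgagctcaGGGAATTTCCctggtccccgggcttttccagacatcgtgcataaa
Cxcl3: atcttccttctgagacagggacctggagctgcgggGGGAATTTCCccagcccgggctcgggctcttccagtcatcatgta
Il6: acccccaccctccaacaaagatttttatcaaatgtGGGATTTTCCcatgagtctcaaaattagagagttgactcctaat
The windows lie on the plus strand of chromosome 5 at chr5:90891139-90891218, chr5:90903767-90903846, chr5:90785993-90786072 and chr5:30013035-30013113. The first 3 lie close together and hold the same 10 letters, so they need not be separate finds, and the share of 3 in 6 has to be read with that. A match is a description of the sequence and no measurement of binding.

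Cxcl3 read -7.83, -9.03, -9.15 and -8.77 in sham arrays, none of them well above background, and -2.10, 0.43 and -2.85 after TAC. It was at least 32.6-fold higher (adjusted p = 0.00011). Cxcl2 was likewise not well above background on any sham array and was at least 6.37-fold higher, with TAC values of -4.04, -2.92 and -4.61. Cxcl1 was measured on all arrays, at -3.52, -2.44, -3.28 and -2.75 after sham and 0.55, 0.92 and -0.068 after TAC, and rose by 3.54 ± 0.34 (adjusted p = 0.00019). In these 3 chemokines TAC replicate 2 was the highest array. Cxcl5 rose by 5.43 ± 0.78, the platelet chemokine gene Ppbp by 2.17 ± 0.29 and Cxcr2, their receptor on neutrophils, by 3.82 ± 0.55. Cxcr2 was well above background on 2 of 4 sham arrays.

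Genes that mark neutrophils rose too, a list that again holds Cxcr2. Of 14 markers measured 11 rose and none fell, with a median of 3.44. The share of rises was 78.6%, against 19.5% of all features. Their summed signal lay between 0.39 and 3.82 (log2) in sham arrays and between 4.34 and 5.85 after TAC, and 5 of the 14 were well above background on all 7 arrays. Markers dim in sham arrays can pass the filter through TAC arrays, so this count too may partly reflect the filter. The median became 1.54 with normexp and quantile normalization and 2.19 with the authors' values. S100a8, a calcium-binding alarmin of neutrophils, read -2.70, -5.10, -2.94 and 0.92 in the sham arrays and 1.43, 2.77 and 2.11 after TAC (5.06 ± 0.73, adjusted p = 0.00083). Its partner S100a9 read 0.42, -2.33, -0.013 and 3.46 against 3.77, 5.35 and 4.53 (4.59 ± 0.70). In both genes sham replicate 4 was the highest sham array, close to the lowest TAC array, TAC replicate 1. Retnlg, a resistin-like protein of neutrophils, rose by 5.26 ± 0.59, the decoy interleukin 1 receptor Il1r2 by 5.37 ± 0.66 and the neutrophil collagenase Mmp8 by 3.96 ± 0.69. The granule genes Ngp, Camp and Ltf, which are made in neutrophil precursors, did not pass, at 1.44, 1.74 and 0.59. Ngp was not well above background on any sham array.

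Of 24 macrophage markers measured 5 rose and 3 fell, 20.8% and 12.5% against 19.5% and 23.3% of all features, with a median of 0.44 (0.18 with the replicate block in place of the slide block), and medians within slides of 0.71, -0.36 and 0.38. Their summed signal lay between 6.68 and 7.28 after sham and between 7.16 and 7.60 after TAC. Besides Arg1 and Chil3, the scavenger receptor gene Msr1 rose by 2.06 ± 0.42 and the integrin gene Itgam by 1.76 ± 0.43. Timd4 and Cx3cr1, which mark macrophages resident in the heart, are among the 3 that fell. They read differences of -1.69 ± 0.24 and -1.61 ± 0.30, and the other probe of Cx3cr1 read -0.39. Lyve1, Folr2, Cd163, Mrc1 and Mertk, also in use as resident markers, stand in the same list, and most of them were not called lower. The falls of Timd4 and Cx3cr1 therefore do not stand for resident macrophage markers as a class. Ccr2, the receptor of recruited monocytes, read 0.24 and did not pass. Timd4 read -3.1, -2.98, -3.40 and -3.47 in sham against -4.58, -4.57 and -5.40 in TAC arrays without overlap.

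Chemokines of monocytes and lymphocytes also went both ways. Of 21 measured 8 rose and 5 fell, 38.1% and 23.8% against 19.5% and 23.3% of all features. Ccl2, the main attractant of monocytes, read 0.42, 1.61, 0.86 and 1.18 after sham and 4.85, 4.84 and 3.77 after TAC and rose by 3.43 ± 0.49 (adjusted p = 0.00081), and its neighbour Ccl7 rose by 2.49 ± 0.49. Cxcl9, an interferon-gamma target that attracts T cells, fell from -0.41 ± 0.40 to -2.88 ± 0.43 (SD, n = 4 and 3), a difference of -2.54 ± 0.26 (adjusted p = 0.00021). Ccl21a, a chemokine of lymphatic vessels with near-identical copies, differed by -1.29 ± 0.29. Cxcl10 read 0.46 and Ccl11 -0.74, neither past the threshold. The count of 8 rises became 5 without sham replicate 1, 4 without TAC replicate 1 and 2 without TAC replicate 2. The count of 5 falls became 3 without sham replicate 2, sham replicate 3, TAC replicate 1 or TAC replicate 3, and 2 without TAC replicate 2.

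Cytokines of the interleukin 6 family signal through a shared receptor chain and STAT3, which switches on its own inhibitor Socs3. Of 18 genes measured 10 rose and 4 fell, 55.6% and 22.2% against 19.5% and 23.3% of all features, with a median of 0.87. Beside Il6 itself, Il11, a cytokine of stromal cells, rose by 2.03 ± 0.23 and Clcf1 by 1.99 ± 0.25. The oncostatin M receptor gene Osmr read 1.52, 2.05, 1.87 and 1.92 after sham and 3.60, 3.42 and 3.58 after TAC and rose by 1.73 ± 0.17 (adjusted p = 0.00018). Among STAT3 targets Junb rose by 1.69 ± 0.20 and the kinase gene Pim1 by 1.31 ± 0.18. Ctf1, the cardiotrophin gene of heart muscle, fell, at 1.83, 0.80, 1.46 and 1.39 in sham and -0.77, -0.27 and -0.58 in TAC arrays (-1.91 ± 0.30). The receptor genes Lifr and Il11ra1 fell by 0.64 and 0.46, and Il6st, the shared chain, read -0.17 and did not pass.

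Of 17 genes of the interleukin 1 family and the inflammasome 9 rose and 2 fell. Il1b, which encodes interleukin 1 beta, rose by 2.80 ± 0.49 and its signalling receptor Il1r1 by 1.43 ± 0.20. The prostaglandin genes Ptgs2 and Ptges rose by 2.48 ± 0.46 and 1.56 ± 0.24, and the NF-kappaB inhibitor Tnfaip3 by 0.73 ± 0.18. The inflammasome sensor Nlrp3 and the cytokine Tnf read -0.058 and 0.21, neither past the threshold. Of the 2 falls in the list 1 was left without sham replicate 1 and 0 without TAC replicate 2. Among 18 acute phase genes 8 rose and none fell. Lcn2, the iron-sequestering lipocalin, rose by 3.76 ± 0.74 and Serpina3m by 1.94 ± 0.47. Saa1 rose by 2.78 ± 0.47 on its brightest probe and read -0.23 on the other. The count of 8 became 5 without TAC replicate 2 and 4 without TAC replicate 3, and the liver gene Orm1 read 0.48.

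Many genes of the extracellular matrix rose. Of 24 glycoproteins and matricellular proteins 16 rose and 2 fell, with a median of 1.52. Tnc, tenascin C, a matrix protein of embryonic and injured tissue, read -3.86, -0.94, -1.34 and -2.98 in sham and 3.22, 2.35 and 2.55 in TAC arrays and rose by 4.93 ± 0.75 (adjusted p = 0.0011). Vcan, the proteoglycan versican, rose by 2.40 ± 0.37, the fibrillin gene Fbn1 by 1.87 ± 0.31, Thbs1, thrombospondin 1, by 2.91 ± 0.49, Ccn4 by 2.41 ± 0.42 and Mfap5 by 1.90 ± 0.35. Efemp1 fell by 0.83, and Lum, lumican, read -0.58 without passing. The count of rises was 10 without TAC replicate 3, and the 2 falls became 4 without sham replicate 4 and 1 without any other single array.

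Of 17 collagen genes 9 rose and none fell (median of 1.13). The basement membrane chains Col4a1 and Col4a2 rose by 1.24 ± 0.19 and 1.18 ± 0.18, and the fibril-regulating chains Col5a1, Col5a2 and Col5a3 by 1.56 ± 0.34, 1.83 ± 0.41 and 1.58 ± 0.20. Col3a1, a main fibrillar collagen, read 0.88 (adjusted p = 0.075) on its brightest probe and 1.66 on the other, and Col14a1 -0.39 (adjusted p = 0.40). Among 28 crosslinking enzymes, proteases and inhibitors 16 rose and 3 fell. The urokinase receptor gene Plaur rose by 3.1 ± 0.24, Adamts4 by 2.64 ± 0.23, the membrane-type metalloproteinase Mmp14 by 2.03 ± 0.23 and Plat, tissue plasminogen activator, by 1.18 ± 0.16. Loxl4, a lysyl oxidase, was not well above background on any sham array and was at least 4.72-fold higher. The 3 falls became 1 without sham replicate 1, sham replicate 2 or TAC replicate 2 and 0 without TAC replicate 1 or TAC replicate 3.

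Of 27 genes of TGF-beta and activin signalling 9 rose and 6 fell (median of 0.39), 33.3% and 22.2% against 19.5% and 23.3% of all features. Inhbb, which encodes an activin subunit, rose by 2.54 ± 0.41 on its brightest probe and read -0.11 on the other. The activin antagonist Fstl3 rose by 2.33 ± 0.41 and Fstl1 by 1.46 ± 0.27. Bmp7, the endothelial receptor gene Acvrl1, Smad3 and the coreceptor gene Tgfbr3 read -1.21 ± 0.20, -0.65 ± 0.12, -0.67 ± 0.14 and -1.30 ± 0.28, all called lower. The ligand gene Tgfb1 read 0.23 and did not pass. On the 7 arrays alone 3 genes of the list rose and 2 fell, and the falls became 4 without sham replicate 3, TAC replicate 1 or TAC replicate 3. The median was 0.19 without TAC replicate 2, 0.23 with normexp and quantile normalization and 0.22 with the authors' values.

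Nearly every gene of DNA replication and mitosis rose. Of 34 measured 33 rose and none fell, with a median of 1.95 and within-slide medians of 2.02, 1.49 and 1.89. Plk1, the kinase of mitotic entry, read -1.96, -1.82, -1.88 and -2.37 in sham and 0.46, 1.12 and 1.13 in TAC arrays and rose by 2.90 ± 0.38 (adjusted p = 0.00053). Tyms, thymidylate synthase, rose by 2.56 ± 0.33, the anaphase activator Cdc20 by 2.42 ± 0.33 and the replication licensing genes Cdt1, Mcm6 and Mcm4 by 1.43 ± 0.21, 1.41 ± 0.19 and 0.88 ± 0.13. No TAC array overlapped a sham array for Plk1, and the 4 sham values lay within 1 log2 unit. The exception was Bub1, a spindle checkpoint kinase, at -0.22 on its brightest probe and 2.59 on its other probe. Which cells divided was not measured.

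Genes of the protein synthesis machinery rose as well, by less. Of 67 cytosolic ribosomal protein genes 54 rose and none fell, with a median of 0.50. Rpl3 read 4.76, 5.34, 5.2 and 4.44 after sham and 6.53, 6.29 and 6.49 after TAC and rose by 1.44 ± 0.22, while Rpl8, Rps6, Rpl10a, Rpl18 and Rpl13a rose by 0.61, 0.68, 0.76, 0.77 and 0.87. Ribosomal protein genes have many processed copies that can share signal. The count of 54 became 34 without TAC replicate 3, 21 with KO TAC replicate 4 kept and 12 on the 7 arrays alone. Of 25 genes of ribosome assembly and translation initiation 20 rose and 2 fell (median of 0.74). The nucleolar gene Nop58 rose by 1.47 ± 0.11, Nip7 by 0.95 ± 0.10, Gnl3 by 1.03 ± 0.12 and the initiation factors Eif4a1 and Eif5a by 1.41 ± 0.15 and 0.86 ± 0.11. Of the 2 falls 1 was left without sham replicate 1 and 0 without TAC replicate 2 or TAC replicate 3. With KO TAC replicate 4 kept 12 rose.

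**Figure D2:**
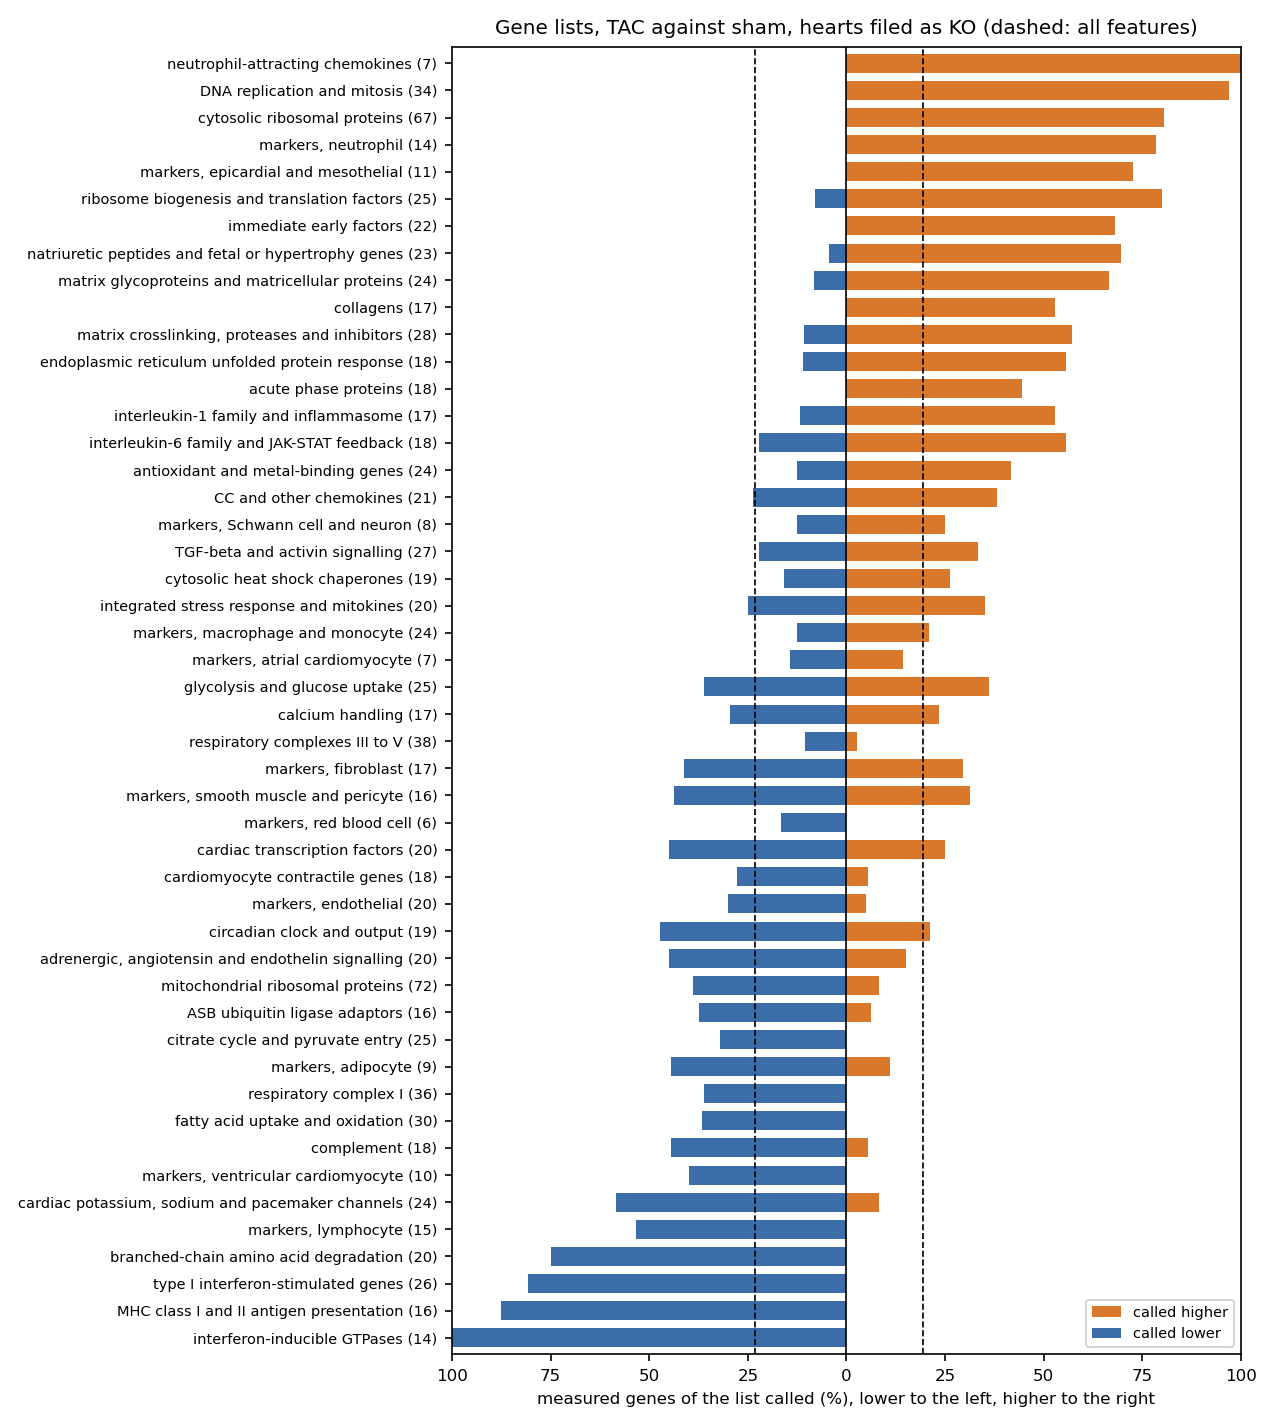
Share of the measured genes of each list called higher (right, orange) or lower (left, blue) after TAC, with the number measured in parentheses and dashed lines at the shares over all features, 19.5% and 23.3%. Bars of the DNA replication, ribosomal, chemokine and immediate early lists run far past the line on the right, and those of the interferon, antigen presentation and branched-chain lists far past the line on the left.

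The hypertrophy genes rose in part. Of 23 natriuretic peptide, fetal and stretch genes 16 rose and 1 fell, with a median of 1.17 and within-slide medians of 1.22, 0.49 and 1.23. Nppb, the B-type natriuretic peptide released by stretched ventricle, read 6.37, 7.14, 6.51 and 6.11 in sham and 8.42, 8.31 and 8.25 in TAC arrays and rose by 1.64 ± 0.29 (adjusted p = 0.0020). Nppa, the atrial peptide of the fetal programme, read 7.62, 8.49, 8.38 and 7.39 against 8.75, 8.35 and 8.69, groups that overlap, and differed by 0.46 ± 0.24 (adjusted p = 0.15). Its other probe read 1.05. Acta1, skeletal alpha actin, read 5.36, 7.51, 6.99 and 5.52 against 7.51, 6.68 and 7.33, with the sham arrays split between 2 low values (replicates 1 and 4) and 2 high ones, and differed by 0.61 ± 0.34 (adjusted p = 0.18). Myh7, the slow myosin heavy chain that rises in many models of overload, read -0.20 (adjusted p = 0.48) and Ankrd1 0.25. The rises of smallest p were spread over several roles. Flnc, filamin C, rose by 1.87 ± 0.21, the calcineurin target Rcan1 by 1.43 ± 0.17, Fhl1 by 2.29 ± 0.27, Actn1 by 2.76 ± 0.33, Myh9 by 1.19 ± 0.15 and the stretch-induced matricellular gene Ccn1 by 2.14 ± 0.25. Mybpc2, a myosin-binding protein of fast muscle, was the fall (-1.35 ± 0.27).

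Contractile genes of the adult muscle cell changed in smaller number. Of 18 measured 1 rose and 5 fell, with a median of -0.17, between -0.32 and -0.050 with 1 array left out. The shares were 5.6% and 27.8%, against 19.5% and 23.3% of all features, so the share of falls was near that of all features. Ckm, the muscle creatine kinase, read 5.29, 4.83, 4.88 and 5.2 in sham and 3.63, 3.88 and 3.17 in TAC arrays and fell (-1.58 ± 0.28, adjusted p = 0.0022). Myh6, the fast adult myosin, differed by -0.69 ± 0.20 (adjusted p = 0.021), a call that ended without sham replicate 1, TAC replicate 2 or TAC replicate 3 (adjusted p = 0.067, 0.071 and 0.11). Tnnt2, Actc1, Myl2 and Tnni3 read 0.13, 0.16, -0.18 and -0.39, none past the threshold. The 5 falls became 3 without sham replicate 1 or sham replicate 3, 8 without TAC replicate 1 and 2 without TAC replicate 2 or TAC replicate 3. Within slides the median of the list was -0.55, 0.26 and -0.16, so slide 2 went the other way.

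Of 17 calcium handling genes 4 rose and 5 fell, 23.5% and 29.4%, near the 19.5% and 23.3% of all features. Sri, sorcin, a calcium-binding regulator of the ryanodine receptor, read 2.84, 2.87, 2.83 and 2.83 after sham and 4.37, 4.47 and 4.56 after TAC and rose by 1.65 ± 0.14 (adjusted p = 0.00012). The sodium-calcium exchanger gene Slc8a1 rose by 1.44 ± 0.21. Hrc, the calcium store of the sarcoplasmic reticulum, fell from 6.69 ± 0.36 to 4.72 ± 0.42 (SD, n = 4 and 3), a difference of -2.06 ± 0.34. Pln, phospholamban, differed by -1.20 ± 0.21 and S100a1 by -0.62 ± 0.10, both called lower. Atp2a2, the calcium pump that phospholamban inhibits, differed by -0.55 ± 0.15 (adjusted p = 0.015), and its call ended without TAC replicate 2 or TAC replicate 3 (adjusted p = 0.058 and 0.063). Without either of these arrays 3 genes of the list fell. Ryr2, the release channel, read -0.30 and did not pass.

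Channel genes of the muscle cell membrane fell in the majority. Of 24 potassium, sodium and pacemaker channel genes 14 fell and 2 rose, with a median of -0.78 and within-slide medians of -0.67, -0.36 and -1.12. Kcnip2, the subunit that sets the transient outward current, read 0.68, -0.53, 0.13 and 0.23 in sham and -3.53, -2.52 and -3.86 in TAC arrays and fell by 3.50 (SE 0.36, adjusted p = 0.00022). Kcnh2, the rapid delayed rectifier, differed by -1.49 ± 0.12, Hcn2, a pacemaker channel, by -1.07 ± 0.17, and Kcnj11 and Abcc9, the pore and the receptor subunit of the ATP-sensitive channel, by -1.09 ± 0.17 and -1.72 ± 0.28. Kcnv2, a silent subunit, differed by -3.63 ± 0.58 and was well above background on 1 of 3 TAC arrays, so the size depends on the background there. Kcna4, a channel of the slow transient current, rose by 1.75 ± 0.35, with sham values of -3.39, -3.30, -3.97 and -3.41 and TAC values of -1.49, -2.19 and -1.94. The connexin gene Gja1 and the slow rectifier Kcnq1 read -0.17 and -0.36 without passing.

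Of 20 genes of adrenergic, angiotensin and endothelin signalling 3 rose and 9 fell. The endothelin receptor gene Ednrb read -0.30, -0.29, -0.40 and -0.29 after sham and 0.75, 1.08 and 0.48 after TAC and rose by 1.09 ± 0.15 (adjusted p = 0.00061), and the receptor kinase Grk5 rose by 0.98 ± 0.24. The adrenergic receptor gene Adra1a and the signalling inhibitors Rgs5 and Rgs4 differed by -1.02 ± 0.20, -0.83 ± 0.13 and -0.68 ± 0.13, all called lower. Adrb1, the main adrenergic receptor of the ventricle, read -0.45 (adjusted p = 0.26) and Edn1 0.38. The 9 falls became 4 without TAC replicate 3.

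Metabolic genes fell unevenly between slides. In the breakdown of branched-chain amino acids, which feeds carbon into the citrate cycle, 15 of 20 genes fell and none rose, with a median of -0.88 and within-slide medians of -1.37, -0.23 and -0.87. Ppm1k, the phosphatase that activates the pathway's rate-limiting complex, read 2.42, 1.75, 2.34 and 2.29 in sham and 0.92, 0.051 and 0.10 in TAC arrays and fell by 1.84 (SE 0.28, adjusted p = 0.0011). Bckdha, a subunit of that complex, differed by -1.03 ± 0.22, and the downstream genes Auh, Mccc1, Aldh6a1 and Mcee by -1.26 ± 0.21, -1.42 ± 0.26, -1.28 ± 0.27 and -1.14 ± 0.25. Bcat2, the first step, read -0.42 and did not pass. TAC replicate 1, the array of slide 2, was the highest TAC array for Ppm1k.

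In the other oxidative pathways fewer genes fell, and their counts depended on the normalization. Of 30 genes of fatty acid uptake and oxidation 11 fell (median -0.51), of 25 of the citrate cycle and pyruvate entry 8 (median -0.47), of 36 of complex I 13 (median -0.44) and of 38 of complexes III to V 4 (median -0.23). The shares were 36.7%, 32.0%, 36.1% and 10.5%, against 23.3% of all features, so complexes III to V lay below the share of all features. None rose in the first 3 lists and 1 in the last. On slide 2 the medians were 0.032, 0.16, 0.016 and 0.17, against -0.72, -0.85, -0.80 and -0.58 on slide 1. Cpt2, which brings fatty acids into oxidation, read 6.54, 5.75, 6.05 and 6.36 after sham and 5.14, 5.23 and 5.2 after TAC (-1.03 ± 0.22, adjusted p = 0.0049), and Acads and Mlycd differed by -0.80 ± 0.18 and -0.83 ± 0.21. The cycle genes Ogdh and Suclg2 and the complex I gene Ndufb5 differed by -0.87 ± 0.20, -0.82 ± 0.16 and -0.98 ± 0.18, all called. The fatty acid transporter Cd36, the pyruvate dehydrogenase kinase Pdk4 and Cs, citrate synthase, read 0.22, 0.35 and -0.19 without passing.

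These 4 counts turned on single arrays. The 11 falls in fatty acid oxidation became 6 without sham replicate 1, 17 without sham replicate 2, 7 without sham replicate 4, 5 without TAC replicate 2 and 4 without TAC replicate 3. The 8 of the citrate cycle became 3 without sham replicate 1 or TAC replicate 2, 18 without sham replicate 2 or TAC replicate 1, 4 without sham replicate 3, 5 without sham replicate 4 and 2 without TAC replicate 3. The 13 of complex I became 4 without sham replicate 1, 25 without sham replicate 2, 24 without TAC replicate 1 and 2 without TAC replicate 2 or TAC replicate 3. The 4 of complexes III to V became 9 without sham replicate 2 or TAC replicate 1 and 0 without sham replicate 1, sham replicate 4, TAC replicate 2 or TAC replicate 3. The arrays whose removal raised these counts, sham replicate 2 and TAC replicate 1, are the pair of slide 2. With normexp and quantile normalization 19 genes of fatty acid oxidation, 21 of the citrate cycle, 34 of complex I and 24 of complexes III to V fell, and with the authors' values 18, 20, 31 and 19. On the 7 arrays alone no complex I gene was called and 2 branched-chain genes fell.

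**Figure D3:**
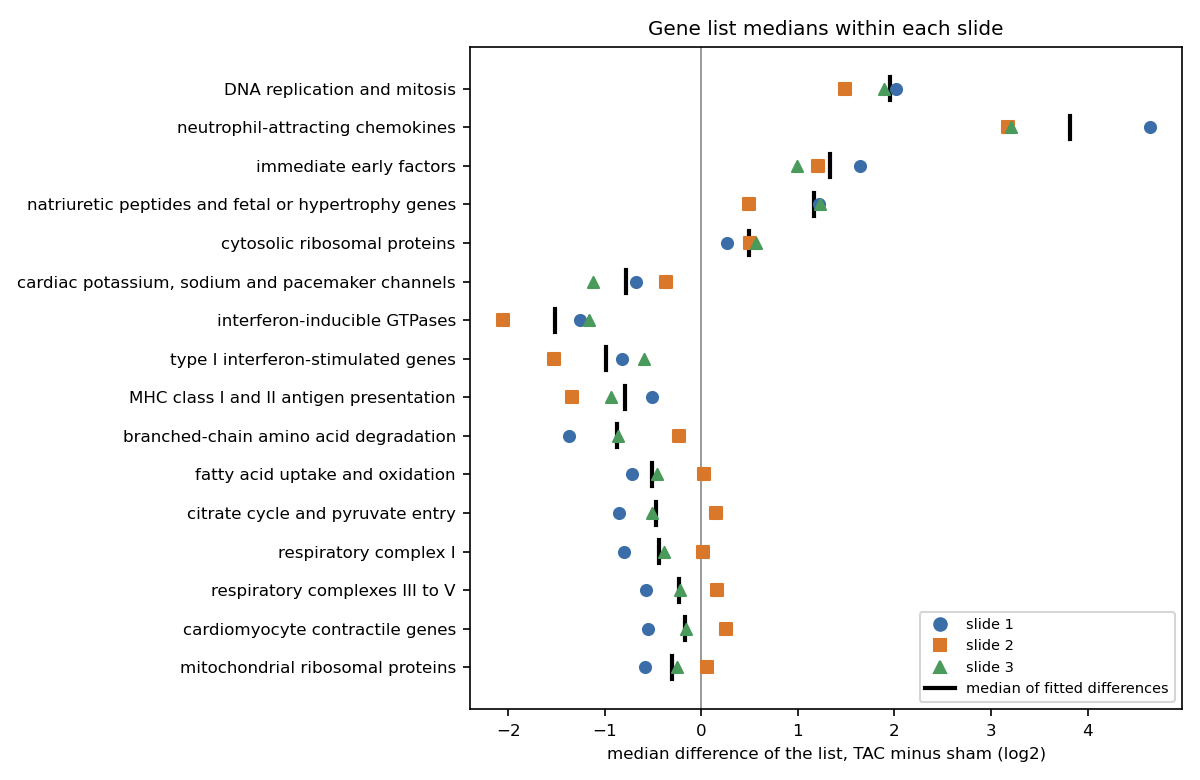
Median difference (TAC minus sham, log2) of 16 gene lists within each of the 3 slides that hold 1 array of each group, 1 symbol per slide, with the fitted median as a bar. The replication and chemokine lists lie to the right of 0 and the interferon lists to the left on every slide, while the lists of fatty acid oxidation, the citrate cycle and the respiratory complexes lie near 0 on slide 2 and furthest to the left on slide 1.

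Glycolytic genes went both ways, with 9 of 25 higher and 9 lower. Among widely expressed forms the lactate exporter gene Slc16a3 rose by 3.41 ± 0.57, the platelet-type phosphofructokinase Pfkp by 1.26 ± 0.19, Eno1 by 1.27 ± 0.20 and Pgam1 by 0.96 ± 0.14. Hk1, the first enzyme of the pathway, rose by 1.18 ± 0.15 on its brightest probe, and of its other probes 3 read 1.26, 1.29 and 1.20 and 1 read -0.94. Pfkm, the muscle phosphofructokinase, fell and stood at 7.21, 6.48, 6.87 and 6.85 in sham and 5.93, 5.60 and 5.40 in TAC arrays (-1.28 ± 0.23, adjusted p = 0.0021). The heart-type regulator Pfkfb2 and Phkg1, the muscle phosphorylase kinase subunit, differed by -2.26 ± 0.40 and -3.15 ± 0.56. Gapdh, often used as a reference gene, read 0.04 without passing.

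Of 72 genes of the mitochondrial ribosome 6 rose and 28 fell, with a median of -0.31 (-0.20 without TAC replicate 2). Mrpl49, Mrpl18 and Mrpl34 differed by -1.23 ± 0.20, -0.94 ± 0.16 and -0.83 ± 0.13, and Mrps10 and Mrps18b rose by 0.66 ± 0.10 and 0.74 ± 0.13. The 28 falls became 16 without sham replicate 1, 13 without TAC replicate 2 and 15 without TAC replicate 3, and the within-slide medians were -0.58, 0.062 and -0.25.

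Regulators of these programmes were measured too. Of 20 cardiac transcription factors and coactivators 5 rose and 9 fell. Klf15, a factor of branched-chain and lipid metabolism in muscle, read 2.95, 2.60, 3.36 and 3.41 after sham and 1.23, 1.04 and 1.40 after TAC and fell by 1.75 (SE 0.15, adjusted p = 0.00015). Ppara, the nuclear receptor that switches on fatty acid oxidation, differed by -1.26 ± 0.17, Klf9 by -0.84 ± 0.16 and Esrrg by -1.36 ± 0.21, all called lower. The coactivator gene Ppargc1a read 2.74, 2.73, 3.06 and 2.91 in sham and 2.09, 2.06 and 1.87 in TAC arrays, without overlap, and differed by -0.91 ± 0.19 (adjusted p = 0.0047). Esrra, its partner, differed by -0.52 ± 0.17 (adjusted p = 0.032), a call that ended without sham replicate 1, sham replicate 4, TAC replicate 2 or TAC replicate 3 (adjusted p = 0.079, 0.057, 0.14 and 0.10). Srf, the factor of actin and fetal genes, and Gata4 rose by 0.77 ± 0.11 and 0.75 ± 0.13. The 5 rises became 3 without sham replicate 1 or TAC replicate 3 and 2 without TAC replicate 2.

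Output genes of the circadian clock fell and their repressor rose. Of 19 clock genes 4 rose and 9 fell. Dbp, a clock-driven activator, read 6.45, 5.69, 5.66 and 5.29 in sham and 2.28, 2.45 and 2.28 in TAC arrays and fell by 3.53 (SE 0.27, adjusted p = 0.00010). Its relatives Tef and Hlf differed by -1.42 ± 0.13 and -2.12 ± 0.26, the nuclear receptor gene Nr1d2 by -1.60 ± 0.15 and Per3 by -2.07 ± 0.23. The sham values of Nr1d2 were 2.18, 2.21, 2.24 and 2.16 and its TAC values 0.49, 0.44 and 0.79, so scatter within groups was small. Nfil3, which binds the same sites as Dbp and represses them, rose by 1.64 ± 0.24, and Bhlhe40 by 0.83 ± 0.12. Arntl, the activator at the head of the clock, rose by 2.32 ± 0.40, with sham replicates 2 and 3 at -2.94 and -3.01, sham replicates 1 and 4 at -1.10 and -0.57, and TAC arrays at -0.19, 0.38 and 0.44. No source used here gives the hour of day at which tissue was taken. The repressor genes Per1 and Per2 read 0.53 and -0.39 without passing, and Nr1d1 0.34 on its brightest probe and -0.41 and 0.45 on its others.

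Interferon-response genes fell together. All 14 interferon-inducible GTPase genes measured fell, with a median of -1.51, and 21 of 26 type I interferon-stimulated genes fell and none rose, with a median of -0.99. Within slides 1, 2 and 3 the medians were -1.26, -2.06 and -1.16 for the GTPases and -0.82, -1.52 and -0.60 for the others. These genes are induced through interferon receptors and STAT factors, and their promoters often hold a response element with the core GAAA, any 2 bases and GAAA again. These letters were found on either strand of the RefSeq promoter in 8 of the 9 GTPase genes and 11 of the 20 type I genes that have one in the table, and in 3.99% of all 27025 genes. The windows of 5 members are shown as examples of this shared element, with the first match in capitals. Pairs that read TTTC are GAAA on the opposite strand.
Gbp3: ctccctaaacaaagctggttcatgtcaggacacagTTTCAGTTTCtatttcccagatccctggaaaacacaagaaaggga
Gbp5: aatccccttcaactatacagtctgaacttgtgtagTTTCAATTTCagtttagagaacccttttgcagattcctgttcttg
Gbp7: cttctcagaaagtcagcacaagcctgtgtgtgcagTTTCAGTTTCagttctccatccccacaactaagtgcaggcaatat
Irgm2: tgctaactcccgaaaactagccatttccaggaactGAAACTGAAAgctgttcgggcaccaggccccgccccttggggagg
Rsad2: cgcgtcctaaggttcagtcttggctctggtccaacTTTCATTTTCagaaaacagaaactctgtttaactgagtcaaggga
They lie at chr3:142559964-142560043, chr3:142496734-142496813, chr3:142530248-142530327 and chr11:58214878-58214957 on the plus strand and at chr12:26456528-26456607 on the minus strand. All but Rsad2 encode GTPases. The windows of Gbp3, Gbp5 and Gbp7 lie close together on chromosome 3, so their matches need not be separate finds.

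Irgm2, a GTPase that guards the membranes of vacuoles, read 2.69, 2.30, 2.33 and 2.12 in sham and -0.19, 0.90 and 0.82 in TAC arrays and fell by 1.95 (SE 0.20, adjusted p = 0.00022). Iigp1 differed by -2.26 ± 0.34 and the guanylate-binding proteins Gbp3, Gbp5 and Gbp7 by -1.43 ± 0.22, -1.46 ± 0.19 and -1.28 ± 0.17. Rsad2, viperin, read 1.86, 1.24, 0.70 and 1.54 after sham and -1.11, -0.10 and -0.72 after TAC (-2.0 ± 0.28, adjusted p = 0.00068), and its neighbour Cmpk2 differed by -2.03 ± 0.25. The signalling genes Stat2 and Irf9, partners in the factor that binds the element above, differed by -1.17 ± 0.15 and -1.07 ± 0.14, and Parp14 and Xaf1 by -1.42 ± 0.17 and -1.18 ± 0.18. In each of these genes the lowest sham array lay above the highest TAC array. Isg15, Ifi44 and Oasl1 read -0.54, -1.52 and -0.90 and did not pass. On the 7 arrays alone 11 of the 26 type I genes fell.

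Antigen presentation fell beside them, with 14 of 16 genes lower and none higher (median -0.79). The class II genes H2-Aa, H2-Ab1 and Cd74 differed by -2.32 ± 0.33, -2.28 ± 0.35 and -2.06 ± 0.30, and Ciita, their master regulator, by -1.95 ± 0.24. H2-Aa read 0.66, 1.52, 1.5 and -0.40 in sham arrays, lowest in replicates 4 and 1, and -1.49, -0.89 and -1.51 after TAC. The immunoproteasome genes Psmb9 and Psmb8 differed by -1.26 ± 0.15 and -0.72 ± 0.16, and Tap1 read -0.59 without passing. The count of 14 became 8 without TAC replicate 1. Genes of the class I and II complex are polymorphic and alike, so probes may share signal. Lymphocyte markers were lower too, 8 of 15 with a median of -0.76, and their summed signal lay between 0.04 and 0.81 in sham and between -0.87 and -0.45 in TAC arrays. Cd8a and Cd2, receptors of T cells, were not well above background on any TAC array and were at least 1.65-fold and 2.33-fold lower, and Nkg7 and the B cell gene Cd79b differed by -1.94 ± 0.38 and -1.38 ± 0.29. The median of the lymphocyte list became -0.23 with normexp and quantile normalization (4 falls), -0.38 with the authors' values (7 falls) and -0.19 with KO TAC replicate 4 kept. The 8 falls became 5 without sham replicate 1 or any 1 of the TAC arrays and 2 with KO TAC replicate 4 kept. The part of lymphocyte number in the interferon and antigen presentation falls was not tested.

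**Figure D4:**
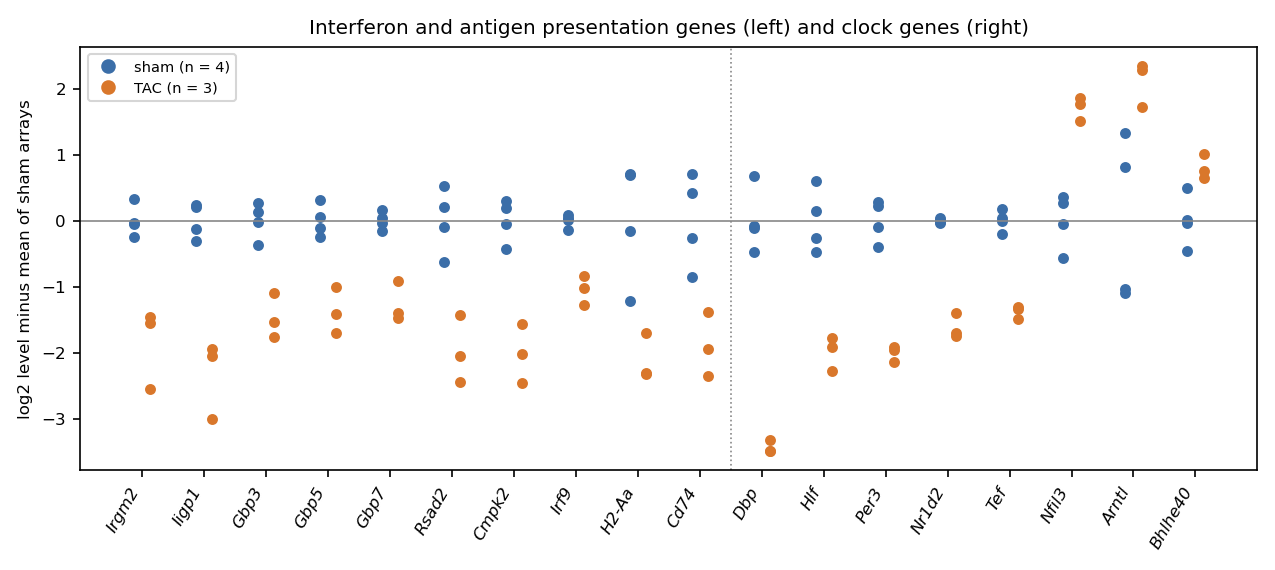
Level on each array minus the mean of the 4 sham arrays (log2, vertical axis) for 10 interferon and antigen presentation genes and 8 clock genes, with sham arrays in blue and TAC arrays in orange. TAC symbols lie below the sham symbols for every interferon gene and for Dbp, Hlf, Per3, Nr1d2 and Tef, and above them for Nfil3, Arntl and Bhlhe40.

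Of 18 complement genes 1 rose and 8 fell. C3, the central component, read 5.51, 5.96, 6.04 and 5.64 in sham and 5.06, 5.11 and 4.97 in TAC arrays and differed by -0.81 ± 0.17 (adjusted p = 0.0051). The classical pathway protease C1s1 differed by -1.21 ± 0.16, and Cfb, the factor B gene of the alternative pathway, rose by 2.56 ± 0.46. The 8 falls became 4 without sham replicate 2 or sham replicate 3 and 3 without TAC replicate 1 or TAC replicate 3.

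Stress-response genes were split. Of 20 genes of the integrated stress response, in which the factor ATF4 turns on genes of amino acid supply, 7 rose and 5 fell. Atf4 itself rose by 1.11 ± 0.15 (adjusted p = 0.00059), Atf3 by 2.93 ± 0.40 and Slc3a2, the partner chain of Slc7a11 in the cystine transporter, by 1.20 ± 0.19. Chac1, which degrades glutathione, read 1.47, 1.99, 2.61 and 1.80 after sham and -0.71, 0.27 and 0.29 after TAC and fell (-1.98 ± 0.35), as did Vldlr (-1.11 ± 0.20) and Atf5 (-0.62 ± 0.15). The letters TGATGCAA, the composite element that ATF4 binds with a partner, were found on either strand of 6 of the 18 promoters of this list in the table and in 1.03% of all 27025 genes. The 4 windows of called genes are shown, with the first match in capitals, because genes with the same 8 letters moved in opposite directions.
Slc7a11: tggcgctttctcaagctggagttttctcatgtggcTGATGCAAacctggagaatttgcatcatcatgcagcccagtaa
Atf3: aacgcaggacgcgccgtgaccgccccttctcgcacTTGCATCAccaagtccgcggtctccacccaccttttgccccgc
Chac1: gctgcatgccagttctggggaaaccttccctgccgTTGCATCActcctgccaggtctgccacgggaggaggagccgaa
Vldlr: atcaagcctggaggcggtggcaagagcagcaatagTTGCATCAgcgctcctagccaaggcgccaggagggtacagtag
They lie at chr3:50443637-50443714 and chr1:191183401-191183478 on the minus strand, and at chr2:119351014-119351091 and chr19:27216785-27216862 on the plus strand. Slc7a11 and Atf3 rose, Chac1 and Vldlr fell. The 5 falls became 3 without TAC replicate 3. Asns, the asparagine synthetase gene that often stands for this response, read 0.32 without passing.

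Of 18 genes of the unfolded protein response 10 rose and 2 fell. Manf, a secreted protein of the stressed endoplasmic reticulum, rose by 1.04 ± 0.17, Xbp1 by 0.83 ± 0.088, Edem1 by 0.82 ± 0.13, Dnajc3 by 0.70 ± 0.15 and Creld2 by 0.56 ± 0.10. Herpud1, which takes part in the disposal of misfolded proteins, read 4.54, 4.96, 5.29 and 4.76 in sham and 3.48, 2.96 and 3.71 in TAC arrays and fell by 1.54 (SE 0.14). Hspa5, the main chaperone, read 0.34 and did not pass. The 10 rises became 4 with KO TAC replicate 4 kept and 2 on the 7 arrays alone, and 1 of the 2 falls was left without TAC replicate 3. Of 19 cytosolic chaperones 5 rose, among them the small heat shock genes Hspb1 (1.39 ± 0.18) and Hspb7 (1.34 ± 0.16), and 3 fell, among them Hsph1 (-1.55 ± 0.31) and the heat shock factor Hsf1 (-0.99 ± 0.20). These counts are 26.3% and 15.8% of the list, near the 19.5% and 23.3% of all features. The 5 rises became 3 without sham replicate 3 or TAC replicate 3.

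Of 24 antioxidant genes, many of them known targets of the factor NRF2, 10 rose and 3 fell. Hmox1, heme oxygenase 1, read 0.84, 1.92, 1.84 and 0.50 in sham and 3.69, 4.93 and 4.77 in TAC arrays and rose by 3.08 ± 0.67 (adjusted p = 0.0057). Thioredoxin, glutathione and sulfiredoxin genes rose by less, Txn1 by 1.03 ± 0.12, Txnrd1 by 1.29 ± 0.12, Gsr by 1.20 ± 0.20 and Srxn1 by 1.36 ± 0.28. Txnrd2, the mitochondrial thioredoxin reductase, fell by 0.66, and the superoxide dismutase gene Sod2 read -0.35 without passing. The 3 falls became 1 without TAC replicate 3.

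Immediate early factors were raised on day 3, the only time sampled. Of 22 measured 15 rose and none fell (median 1.34). Egr2 read -2.26, -0.44, -1.30 and -1.94 after sham and 3.17, 2.06 and 1.77 after TAC and rose by 3.76 ± 0.41 (adjusted p = 0.00027). Fosl2 rose by 1.84 ± 0.15, Ier3 by 2.07 ± 0.22, Maff by 1.76 ± 0.19 and Klf6 by 1.31 ± 0.14. Jun and Fosb read -0.12 and 0.28 and did not pass. The adaptors of the ASB family, which bring proteins of muscle to ubiquitin ligases, gave 3 of the larger falls. Beside Asb15, Asb14 read 3.70, 2.17, 2.62 and 3.47 against -0.43, -0.75 and -1.04 (-3.78 ± 0.46) and Asb10 3.06, 2.51, 2.96 and 2.77 against 0.40, -0.0023 and -0.033 (-2.81 ± 0.21). Of 16 measured 6 fell and 1, Asb12, rose (0.65 ± 0.13), so the fall was not one of the whole family.

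Markers of the other cells of the apex moved less as groups, with the epicardial layer apart. Of 11 epicardial and mesothelial markers 8 rose and none fell (median 2.67), and their summed signal lay between 2.63 and 3.46 in sham and between 5.21 and 5.68 in TAC arrays. Krt8 read -2.07, -1.91, -3.46 and -2.07 in sham and 0.20, 2.13 and 1.37 in TAC arrays and rose by 3.70 ± 0.40 (adjusted p = 0.00027). Aldh1a2, the retinoic acid enzyme of the activated epicardium, rose by 3.37 ± 0.48, Wt1 by 1.19 ± 0.21 and Krt19, Upk1b and Msln by 3.31 ± 0.60, 3.68 ± 0.73 and 2.77 ± 0.63. Sham replicate 3 was the lowest array for Krt8, Krt19, Upk1b and Msln, with Msln at -2.20 against 0.30 to 1.67 in the other sham arrays. The within-slide medians of 1.69, 1.42 and 4.83 were largest on slide 3, the slide of that array. How much of the outer layer each piece of apex held was not measured.

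Fibroblast markers split, with 5 of 17 higher and 7 lower. Scara5, a ferritin receptor of resting fibroblasts, read 0.82, 0.35, 0.63 and -0.33 after sham and -2.81, -1.83 and -2.57 after TAC and fell by 2.95 (SE 0.28, adjusted p = 0.00018), and Gsn, gelsolin, differed by -1.09 ± 0.17, Tcf21 by -0.66 ± 0.14 and Ddr2 by -0.48 ± 0.10. Vim and Mfap5 rose by 1.07 ± 0.21 and 1.90. The 5 rises became 3 without sham replicate 1 or sham replicate 4 and 2 without TAC replicate 2 or TAC replicate 3. Their summed signal lay between 8.56 and 9.23 in sham and between 8.87 and 9.20 in TAC arrays, so the list as a whole overlapped.

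Of 20 endothelial markers 1 rose and 6 fell, with Tie1 at -0.76 ± 0.16, and Pecam1 and Cdh5 at 0.25 and -0.42 without passing. The 6 falls became 1 without sham replicate 1, sham replicate 4 or TAC replicate 3 and 3 without TAC replicate 1. Of 16 markers of smooth muscle cells and pericytes 5 rose and 7 fell. Cspg4 and Mcam rose by 0.91 ± 0.10 and 1.15 ± 0.15, Myh11, the smooth muscle myosin, and Smtn differed by -0.93 ± 0.15 and -1.03 ± 0.19, and the pericyte genes Rgs5 and Abcc9 are given above. The 5 rises became 3 without TAC replicate 1 or TAC replicate 3. Of 9 adipocyte markers 1 rose and 4 fell, while their summed signal lay between 6.76 and 7.05 in sham and between 7.05 and 7.33 in TAC arrays. Cidec and Cidea, of fat droplets, differed by -1.82 ± 0.40 and 0.64 ± 0.12, and the 4 falls became 2 without sham replicate 3 and 1 without TAC replicate 3. Of 8 Schwann cell and neuron markers 2 rose and 1 fell, of 7 atrial markers 1 rose and 1 fell, and of 6 red blood cell markers 1 fell (median -0.75), a count that was 0 to 5 with 1 array left out. Of 10 ventricular muscle markers 4 fell, Pln, Ckm, Myh6 and the factor Irx4 (-1.0 ± 0.19), and their summed signal lay between 10.73 and 11.17 in sham and between 10.55 and 10.95 in TAC arrays.

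The response of these hearts was set beside that of the hearts filed as Cre, 3 TAC against 4 sham arrays in the same fit, and the difference of the responses was tested. It passed the threshold for 322 of 25099 features (1.28%), of which 116 (0.462%) had the higher and 206 (0.821%) the lower response in hearts filed as KO. With the genotypes of the value table every sign of these differences turns. The count was 71, 26, 41 and 184 without sham replicates 1, 2, 3 and 4 and 144, 43 and 18 without TAC replicates 1, 2 and 3. Of the 34 genes with such a call that are named in the text 4 kept it with any 1 of these 7 arrays left out, Slc7a11, B3gnt5, Aqp8 and Ttc39a, and all 34 kept their sign. The arrays filed as Cre, on which the difference rests as well, were not left out in turn. With array weights 1 of the 34 calls held, and 1 held with the replicate block in place of the slide block. Most of these 4 calls therefore ended under each of these 2 settings. Slc7a11, the cystine transporter, differed by 3.1 ± 0.17 in hearts filed as KO and by 0.49 ± 0.17 in those filed as Cre, a difference of 2.62 ± 0.25 (adjusted p = 0.0081). Its fitted sizes depend on the background, since no KO sham array measured it. B3gnt5 rose by 2.92 against 0.72, a difference of 2.20 ± 0.23 (adjusted p = 0.0088).

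Of the 7 genes in the neutrophil chemokine list, which holds Cxcr2, 2 passed the test of the difference, Cxcl3 and Cxcl2. Cxcl3 differed by 7.25 ± 0.58 in hearts filed as KO and by 2.33 ± 0.58 in those filed as Cre, a difference of 4.92 ± 0.83 (adjusted p = 0.035), and Cxcl2 by 4.06 against 0.43 (3.63 ± 0.65, adjusted p = 0.040). The fitted sizes of both depend on the background, since no KO sham array measured them. Slc6a19, an amino acid transporter not well above background on any KO sham array, Fam24b and the protease gene Asprv1 followed at differences of 3.34 ± 0.60, 3.19 ± 0.46 and 2.23 ± 0.39. Without sham replicate 2, sham replicate 3, TAC replicate 2 or TAC replicate 3 the calls of all 5 ended. Those of Cxcl3, Cxcl2, Slc6a19 and Asprv1 ended without sham replicate 1, those of Cxcl3, Cxcl2 and Asprv1 without TAC replicate 1, and those of Cxcl3 and Slc6a19 without sham replicate 4. Over these fits the highest adjusted p was 0.0968 for Cxcl3, 0.0939 for Cxcl2, 0.103 for Slc6a19, 0.0897 for Fam24b and 0.107 for Asprv1.

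In the other direction Aqp8, a water and peroxide channel, read 1.46, 1.88, 1.16 and 1.34 in sham and -2.16, -2.03 and -1.46 in TAC arrays filed as KO, and 0.012, -0.34, -0.72 and 0.37 and 1.08, -0.30 and 1.52 in those filed as Cre. Its responses of -3.54 ± 0.33 and 0.96 ± 0.33 differed by -4.50 ± 0.47 (adjusted p = 0.0088). Gbp6 differed by -3.96 and 0.084 (-4.04 ± 0.55, adjusted p = 0.023), and its arrays filed as Cre read -0.13, -0.26, -0.15 and 0.30 after sham and 0.74, -1.12 and 0.62 after TAC. Armc2, Lgi1 and Ip6k3, an inositol phosphate kinase of muscle, had fitted differences of -4.01 ± 0.46, -3.64 ± 0.50 and -3.42 ± 0.60. The sizes of Armc2 and Lgi1 depend on the background, since no KO TAC array measured them well above it. Lman1l read 0.042 in hearts filed as KO and 3.41 in those filed as Cre (-3.37 ± 0.66, adjusted p = 0.0498), and its other probe read -1.03 in hearts filed as KO. Of the genes described above C3 and C1s1 belonged to the same side, with responses of 1.19 and 0.32 in hearts filed as Cre and differences of -2.0 ± 0.25 and -1.54 ± 0.22. Fn3k, Asb15, Asb10, Cnga3 and Irgm2 passed as well, with differences of -3.19, -2.75, -2.13, -2.62 and -1.61. The sizes of Asb15 and Cnga3 rest on the background in the same way. Ttc39a differed by -3.21 in hearts filed as KO and -0.35 in those filed as Cre (-2.85 ± 0.28, adjusted p = 0.0081), and its call and that of Aqp8 held with any 1 of the 7 arrays left out. Without TAC replicate 3 the calls of the other 12 genes of this paragraph ended, and without TAC replicate 2 those of all but Armc2 and C3 did. Further calls ended without sham replicate 1 (Ip6k3, Lman1l, Asb10, Irgm2), sham replicate 2 (Gbp6, Ip6k3, Lman1l, C3, C1s1, Asb15, Cnga3, Irgm2) and sham replicate 3 (all 12 but Armc2, Lgi1 and C3). The same held for sham replicate 4 (Ip6k3, Lman1l, Irgm2) and TAC replicate 1 (Lman1l, Cnga3). The highest adjusted p over these fits lay between 0.0702 for Armc2 and 0.110 for Ip6k3.

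**Figure D5:**
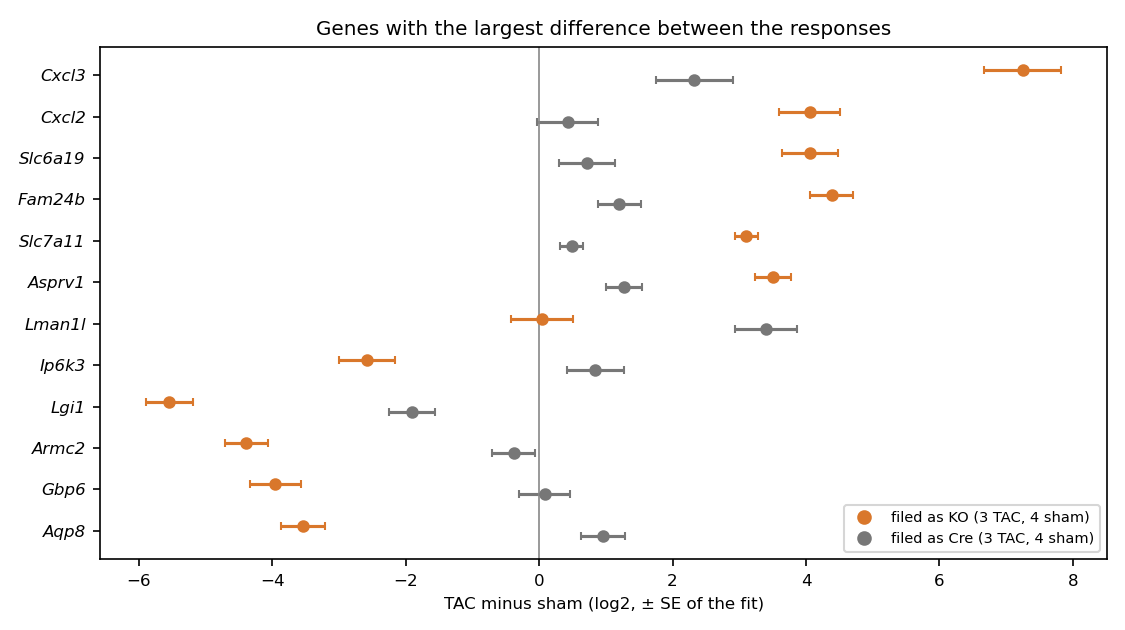
Difference between TAC and sham (log2, ± SE of the fit, horizontal axis) in hearts filed as KO (orange) and filed as Cre (grey) for the 6 genes in each direction with the largest difference between the responses past the threshold. The symbols of the 2 groups of hearts stand apart by 2.23 to 4.92 log2 units in one direction and by -4.50 to -3.37 in the other.

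For the genes that define overload the difference did not pass. Nppb rose by 2.45 ± 0.29 in hearts filed as Cre, and the responses differed by -0.81 ± 0.41 (adjusted p = 0.34). Nppa had a response of 2.19 ± 0.24 there and a difference of -1.73 ± 0.34, with an adjusted p of 0.050 that did not pass. Ppargc1a read 0.43 ± 0.19 there, with a difference of -1.34 ± 0.27 (adjusted p = 0.0522). The intervals of these differences are wide, and a p that misses the threshold does not show that the responses were alike.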

How the data were processed

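Total RNA of the heart apex was hybridised to 1-colour arrays, and the authors deposited the scanner output of Agilent Feature Extraction 10.7.3.1, whose processed signal is a background-corrected linear intensity per the file headers. Values on the log2 scale are in the table the authors deposited, by steps that no source used here gives, and 14 of its columns matched scanner files at a correlation of at least 0.999992. Their column medians were 7.22 to 7.23, so they are centred near 1 value. They served as an alternative, with the genotype of the scanner file. The submitters' processing notes name limma.

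Each scanner file's processed signal was put on the log2 scale and its 75th percentile subtracted, without a pseudocount. Outlier spots were left out, and spots of 1 probe were averaged. Probes were kept if well above background on at least 3 of the 14 arrays, whatever their group, and the brightest probe stood for a gene. Gene names were assigned by matching the transcript identifier of each probe in the files to a list of RefSeq genes. An identifier that matched more than 1 gene gave no name. The fit was limma 3.58.1 (R 4.3.3) on 14 arrays with group and slide as fixed terms, eBayes (residual df 7, prior df 2.22) and Benjamini-Hochberg adjustment over 25099 features. The slide is that of the file labels, and slides 1 to 4 are numbered here. KO TAC replicate 4 was left out of the fit. The steps were tested on simulated data. The arrays, the gene lists and the genes to describe were chosen with earlier results of these data known. Genes were named by rule, the 12 largest rises and falls without overlap of the groups, the 5 per direction with the least scatter relative to the change, the 6 per direction with the largest difference between the responses, up to 6 members of each list with the smallest adjusted p and up to 4 that did not pass or went the other way, and 9 genes of prior interest. Alternatives changed the block, the arrays, the normalization, the filter, the probe rule and the variance model. Promoters are those of RefSeq, build GRCm38.p6. Some results are not reported here.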

Additional observations from a re-analysis of the deposited data

Results flagged for a closer look

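The response to TAC in hearts filed as KO minus that in hearts filed as Cre passed the test of the difference (limma, adjusted p under 0.05) for 34 genes named here, and all values are log2 differences of the 2 responses, 3 TAC and 4 sham arrays each. In the upward direction Cxcl3, Cxcl2, Slc6a19, Fam24b, Slc7a11 and Asprv1 differed by 4.92, 3.63, 3.34, 3.19, 2.62 and 2.23, in that order. Among the upward genes Slc7a11 and B3gnt5 are the 2 whose calls held with any 1 of the 7 KO arrays left out. Smaller differences followed, and B3gnt5, Clcf1, Adamts4, Txnrd1, Nop58, Tomm70a, Srf and Xbp1 differed by 2.20, 2.14, 2.06, 1.06, 0.96, 0.85, 0.79 and 0.74, in that order. In the downward direction Aqp8, Gbp6, Armc2, Lgi1, Ip6k3, Lman1l and Fn3k differed by -4.50, -4.04, -4.01, -3.64, -3.42, -3.37 and -3.19, in that order. Aqp8 reads lower after TAC in hearts filed as KO and slightly higher in those filed as Cre. For the rest Ttc39a, Asb15, Mybpc2, Cnga3, Asb10, C3, Irgm2, C1s1, Pik3ip1, Rapsn, Herpud1, Tmem86a and Kcnh2 differed by -2.85, -2.75, -2.70, -2.62, -2.13, -2.0, -1.61, -1.54, -1.51, -1.30, -1.26, -1.12 and -0.89, in that order. Sizes and order depend on the background for Cxcl3, Cxcl2, Slc6a19 and Slc7a11, which no KO sham array measured well above it, and for Armc2, Lgi1, Asb15 and Cnga3, which no KO TAC array did. Without TAC replicate 3 of the KO hearts 4 of the 34 calls held, and every sign above would turn with the genotypes of the value table. With array weights 1 of the 34 calls held, and 1 with the replicate block in place of the slide block.

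Among the 4 KO sham arrays 1 array stood apart from the other 3 in 17 of the named genes by a gap, relative to the range of the 4, above Dixon's critical value. Chance alone marks about 1 group in 20. Far more named genes than these 17 were screened, so a count of this size can arise by chance. Sham replicate 1 stood apart for Loxl4, Rgs5, Srf, Tnnt2, Tomm70a and Txn1, at -6.01, 4.22, 3.47, 8.18, 3.02 and 3.33 (log2 level). Sham replicate 2 stood apart for Fosb and Junb, at -3.20 and 3.76 (log2 level). Sham replicate 3 stood apart for Ednrb, Kcna4, Krt8, Parp14 and Ppara, at -0.40, -3.97, -3.46, 1.62 and 2.70 (log2 level). Sham replicate 4 stood apart for Cd36, Chil4, Cnga3 and Esrra, at 5.99, -3.54, -3.42 and 4.81 (log2 level). No replicate was apart for most of these genes. The calls of Esrra ended without sham replicate 4 (adjusted p = 0.057), and those of the other called genes in this paragraph held without the array named.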

How the results depend on the processing

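The counts of 4895 rises and 5847 falls stayed within 1.5 times under most alternatives, with 3785 to 4485 rises and 4224 to 5765 falls as each of the 7 arrays was left out. They moved to 2336 and 2644 on the 7 arrays alone and to 0 and 0 with the operation of the further label. Arrays on 1 slide deviated together (median correlation 0.45 over 18 pairs of different groups), arrays of KO sham and KO TAC with 1 replicate number did not (-0.36 over 3 pairs), so the numbers were taken as names. With the replicate block in place of the slide block 3213 features rose, 3648 fell and 2 differed between the responses.

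The 322 differences between the responses moved under many settings. They numbered 34 without a slide block, 610 with slide as a random block, 20 with KO TAC replicate 4 kept, 739 with normexp and quantile normalization, 565 with the authors' values, 44 with no filter on dim probes, 647 over probes well above background on all 7 arrays, 704 with trended and robust variance, 4 with array weights, 0 with the operation of the further label and 18 to 184 with 1 array left out. The cause was not tested. A median over all features of -0.086 became 0.090 with KO TAC replicate 4 kept.

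Calls of 17 named genes ended with KO TAC replicate 4 kept, those of Adra1a, Asb12, Bmp7, Cd2, Cd8a, Creld2, Klra8, Klra9, Manf, Mcam, Mrgprh, Myh11, Nkg7, Per3, Ppbp, Rps6 and Tgfbr3. Of the counts and medians of the gene lists 466 values moved and 3134 did not. On the 7 arrays alone 39 gene calls ended and with the replicate block 13. With the further label Asns -0.28, Bcat2 0.070, C3 0.088, Camp -0.56, Ccl21a 0.11, Ccr2 -0.11, Col14a1 0.054, Cs 0.10, Edn1 -0.19, Esrra 0.036, Fosb -0.040, Gja1 0.27, Jun 0.022, Klf4 -0.0076, Ltf -0.75, Lum 0.10, Myh7 0.27, Myl2 0.028, Ngp -0.55, Orm1 -0.46, Pecam1 -0.10, Per1 -0.069 and Tgfb1 -0.084 (log2) took the other sign. Of these C3, Ccl21a and Esrra are called above. The remaining sign changes were of genes not called. They were Gapdh -0.15 and Nlrp3 0.42 with KO TAC replicate 4 kept, Ltf -0.062 with array weights, Bub1 1.19 and Lman1l -0.50 with the mean over probes, Ccr2 -0.015 and Lman1l -0.021 on the 7 arrays alone, Lman1l -0.000202 with quantile normalization and Ccr2 -0.045 with the replicate block. With 1 array left out the ranges that cross 0 were Ccr2 -0.015 to 0.64, Cs -0.45 to 0.040, Gapdh -0.029 to 0.076, Gja1 -0.39 to 0.016, Lman1l -0.38 to 0.44, Myh7 -0.45 to 0.087, Nlrp3 -0.22 to 0.041 and Tgfb1 -0.029 to 0.39.

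Depth limits differ from sequencing here, since the number of arrays sets the precision and spots near background have no firm size. In simulated data on 25072 genes 49 of 100 changes of 1 log2 unit and 83 of 100 of 2 units were recovered, with 11 false among 143 calls. Only 100 genes of each size were changed there, with noise drawn independently for each gene, against 42.8% of features called in these data. Recovery depends on the share changed, so these rates do not carry over to this comparison.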
